A study of Mus musculus with 8 samples.

Results

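The 38 genes described here encode transcription factors and closely tied co-factors that set or hold endothelial lineage and endothelial subtype identity. They were chosen by name and by family, with no cut on a measured value but with earlier results of these data known. All 38 were found among the 25428 gene rows of the array table. Cells were liver sinusoidal endothelial cells (LSECs), the fenestrated and scavenging endothelium of the liver, isolated by magnetic sorting for CD146, an endothelial adhesion molecule. Ctnnb1OE-EC mice carried the Clec4g-iCre transgene and 1 floxed allele of Ctnnb1(Ex3), whose recombination removes the exon that holds the degradation signal of β-catenin. The second group, labelled Ctrl, were control mice described as wildtype. Which of these alleles the Ctrl animals carried is not given in the sources used here. RNA was measured on Affymetrix gene arrays, and every value below is a normalized log2 signal unless named otherwise. All mice were female, 2 months old and of strain C57BL/6J. Each group had 4 samples, and each sample was a pool of LSECs from 2 mice, so every error given is the spread between pools. The Cre transgene recombines in cardiac endothelium too, and these mice develop a heart phenotype, so effects of the allele in LSECs and effects of the heart on the liver cannot be told apart in the comparison.

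Endothelial cells hold their identity through layers of DNA-binding proteins. ETS factors such as ERG and FLI1 and the SOXF factors SOX7, SOX17 and SOX18 act in most endothelium, the shear-responsive KLF2 and KLF4 hold the quiescent state, and GATA4, c-MAF and TFEC belong to the program of the liver sinusoid. PROX1 marks lymphatic endothelium, NR2F2 marks veins and lymphatics, and FOXQ1, PPARD and SOX17 are linked to the brain endothelial program that Wnt signaling maintains. β-Catenin itself binds no DNA and acts through TCF and LEF factors. The question the comparison addresses is how far the transcripts of this layer differed between LSECs with β-catenin gain of function and Ctrl LSECs.

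1 of the 38 genes passed the test, namely Lmo2, which rose in Ctnnb1OE-EC LSECs by a log2 fold change of 0.72 (1.65-fold). This is 2.63% of the genes, against 0.920% of all 25428 rows called in either direction, 0.535% called higher and 0.385% called lower. Among the rows at or above the array median, 1.74% were called. A call means a limma p, adjusted by Benjamini-Hochberg across all 25428 rows, under 0.05. No factor fell past that threshold, and Tfec came nearest, at -0.62 on the log2 scale (adjusted p = 0.0591). A plain one-way analysis of variance for each gene, run here with Benjamini-Hochberg adjustment, called 0 of the 38 genes and 0.0787% of all rows. That analysis of variance gave an unadjusted p under 0.05 for 7 of the 38 genes, against 2764 of all 25428 rows. It shares the name of the test in the study's methods but not its software or settings, and does not stand for that test's calls. The study's own list of significantly changed genes holds Lmo2 as higher in Ctnnb1OE-EC LSECs. Without adjustment, 11 of the 38 genes (28.9%) had a limma p under 0.05, 7 higher and 4 lower in Ctnnb1OE-EC LSECs, against 11.5% of all rows and 16.7% of the rows at or above the array median. The values of the genotypes did not overlap in 5 of the 38 genes (13.2%), 3 higher and 2 lower. This compares with 7.59% of all rows (3.55% higher and 4.04% lower) and 11.1% of the rows at or above the array median. Because the 38 genes were chosen with earlier results of these data known, these shares are not independent support.

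The set as a whole had no single direction. The mean was higher in Ctnnb1OE-EC LSECs for 21 of the 38 genes and lower for 17, and the median log2 fold change was 0.05, beside -0.01 over all rows. The median size of the log2 fold change was 0.20 over the 38 genes and 0.12 over all rows. A log2 fold change beyond 0.5 in either direction was seen in 5 genes, against 1255 of all 25428 rows. Beyond 1 there were 0 genes, against 279 of all rows. The 95% interval of the difference lay within 2-fold for 34 of the 38 genes and within 1.5-fold for 19, and it included 0 for 27. Of the 38 genes, 36 lay at or above the array median of 4.20 in at least 1 genotype, and Meox1 and Meox2 lay below it in both.

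**Figure D1:**
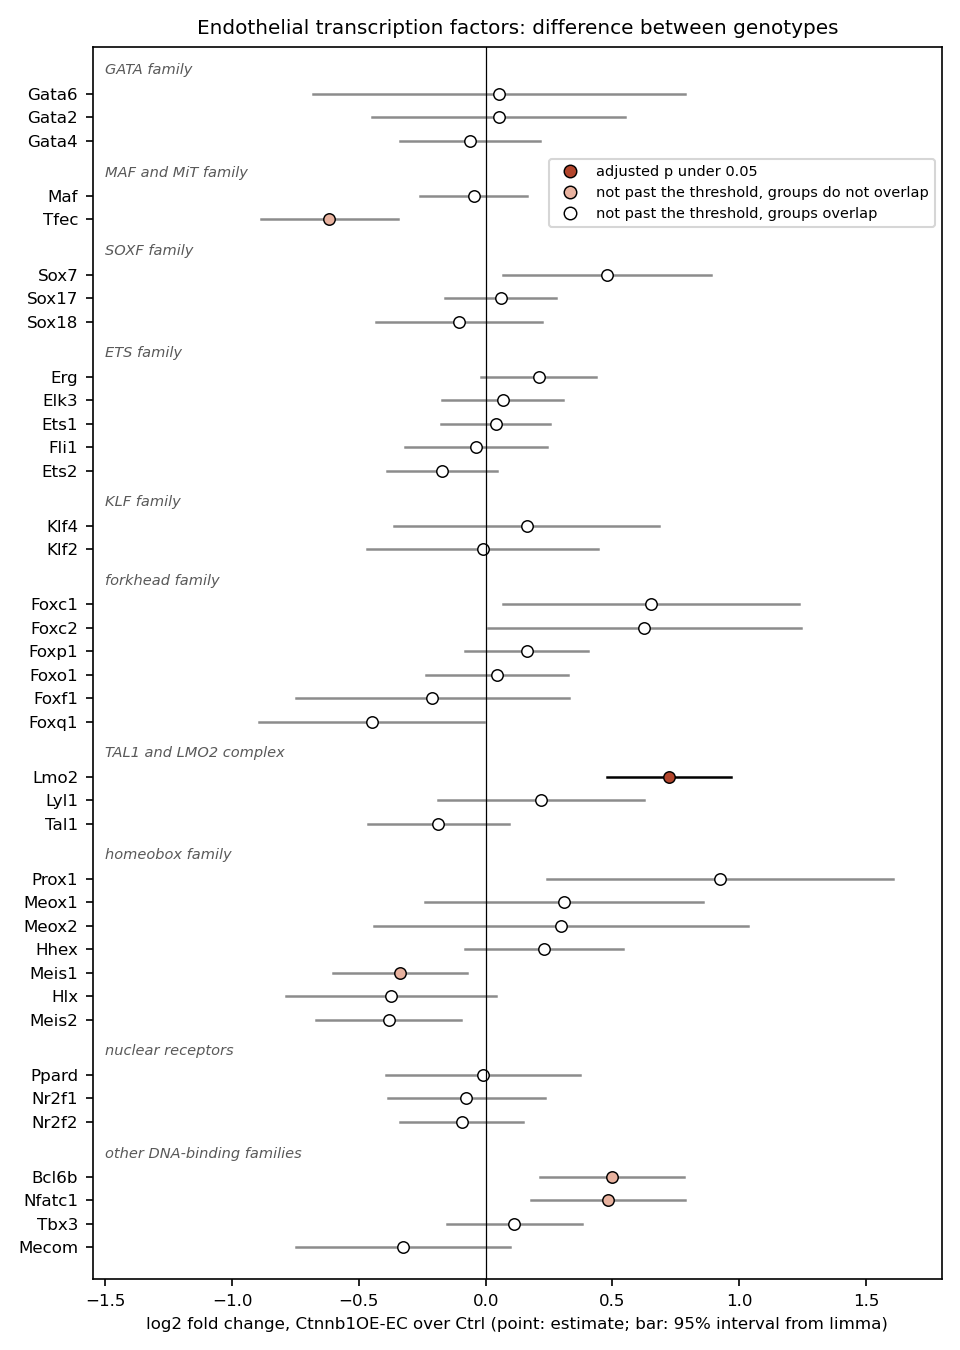
Log2 fold change of each of the 38 transcription factor genes, Ctnnb1OE-EC over Ctrl, grouped by family, with points for the estimate and bars for the 95% interval from limma (4 samples per genotype). Lmo2, at 0.72, is the only filled point past the threshold, and the paler points of Tfec, Meis1, Bcl6b and Nfatc1 mark genes whose genotypes did not overlap but which missed it.

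The sequences of 2 of these 5 separated genes are shown because both lay lower in Ctnnb1OE-EC LSECs and a promoter window was at hand for each. The windows of 300 bases each flank 1 annotated start, are taken from RefSeq on GRCm38.p6, and are written 5′ to 3′ along the gene. Capitals mark the ETS core GGAAG or its reverse CTTCC. Tfec lies on the minus strand at chr6:16898392-16898691, and Meis1 on the minus strand at chr11:19018920-19019219. The Meis1 window lies inside the outer bounds of the annotated gene, so it can flank an internal alternative start only.
Tfec: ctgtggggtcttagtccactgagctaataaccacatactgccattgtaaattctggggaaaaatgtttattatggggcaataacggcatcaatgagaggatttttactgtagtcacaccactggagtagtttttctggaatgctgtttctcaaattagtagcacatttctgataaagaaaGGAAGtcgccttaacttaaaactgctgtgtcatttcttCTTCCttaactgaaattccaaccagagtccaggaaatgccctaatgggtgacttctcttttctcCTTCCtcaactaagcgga
Meis1: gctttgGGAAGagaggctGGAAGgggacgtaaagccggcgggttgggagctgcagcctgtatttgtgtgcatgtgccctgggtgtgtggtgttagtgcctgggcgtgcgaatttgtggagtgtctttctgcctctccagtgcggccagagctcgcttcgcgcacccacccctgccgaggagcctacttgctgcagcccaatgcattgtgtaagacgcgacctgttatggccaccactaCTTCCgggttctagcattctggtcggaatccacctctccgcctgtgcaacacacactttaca
The Tfec window held 3 matches to the ETS core, 1 to GATAA or its reverse TTATC, and 0 to the TCF and LEF core CTTTGA or its reverse TCAAAG. The Meis1 window held 3 matches to the ETS core, 0 to the GATA core and 0 to the TCF and LEF core.

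A promoter window was matched for 22 of the 38 genes, with 31 windows in all. The TCF and LEF core stood in 7 of these windows (22.6%), against 5257 of 32851 windows over all genes. The ETS core stood in 20 windows (64.5%, against 71.4%), and the GATA core in 5 (16.1%, against 25.4%). These are counts of short letter strings on both strands and not of bound sites. The genes with no window used here were Lmo2, Bcl6b, Nfatc1, Gata4, Gata6, Maf, Sox7, Sox17, Sox18, Ets1, Fli1, Foxc2, Foxf1, Foxq1, Meox1 and Tbx3.

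Lmo2 encodes a LIM-only protein that binds no DNA itself and bridges TAL1 or LYL1, E proteins, GATA factors and LDB proteins in one complex, which is required in blood and vascular development. Lmo2 measured 8.60, 8.28, 8.45 and 8.22 on the log2 scale in the 4 Ctnnb1OE-EC samples, against 7.75, 7.68, 7.53 and 7.69 in the 4 Ctrl samples. The lowest Ctnnb1OE-EC sample lay 0.46 above the highest Ctrl sample. The means were 8.39 ± 0.17 in Ctnnb1OE-EC and 7.66 ± 0.09 in Ctrl (SD, n = 4 each), and they differed by 0.72 (SE 0.11, 95% interval 0.48 to 0.97, adjusted p = 0.0190). A two-sided exact permutation of the genotypes over the 8 samples (70 assignments) gave p = 0.0286, the smallest this design allows. The call was lost with the plain analysis of variance run here (adjusted p = 0.0821), without Ctnnb1OE-EC replicate 3 (0.0716) and without any 1 of the 4 Ctrl samples (0.0518 to 0.0682), while the log2 fold change stayed between 0.65 and 0.78 in every alternative run. Of 9 erythroid and megakaryocyte markers, of lineages that also use Lmo2, 0 passed, 7 had a higher mean and 5 lay below the array median in Ctrl, and their summed linear level ran from 197 to 324 in Ctnnb1OE-EC and from 234 to 260 in Ctrl. The part of blood cell RNA in the Lmo2 values was not tested.

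The other genes of that complex in the set did not pass. Tal1, a basic helix-loop-helix factor of blood and endothelial precursors, differed by -0.19 and its relative Lyl1 by 0.22 (adjusted p of 0.635 or more for both). Of 13 further partners on a list of TAL1 and LMO2 partners, 0 passed in the higher and 1 in the lower direction, with a median log2 fold change of 0.07. That 1 gene was Ldb2, a LIM-domain-binding adaptor, which measured 9.33, 9.38, 9.81 and 9.55 in Ctnnb1OE-EC LSECs, against 10.42, 10.37, 10.43 and 10.53 in Ctrl LSECs. All 4 Ctnnb1OE-EC values lay below all Ctrl values, and the difference was -0.93 (SE 0.12, adjusted p = 0.00917). The plain analysis of variance run here did not call Ldb2 (adjusted p = 0.0730). The study's own list of significantly changed genes holds Ldb2 as lower in Ctnnb1OE-EC LSECs. Next in the partner list stood Ssbp4, an LDB-binding protein, at a difference of 0.34 (adjusted p = 0.238). Ldb1, the paralog of Ldb2, named after its value was seen, differed by 0.07 (adjusted p = 0.826). Lmo2 and Ldb2, 2 genes whose products meet in the same complex, moved in opposite directions at the transcript level.

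**Figure D2:**
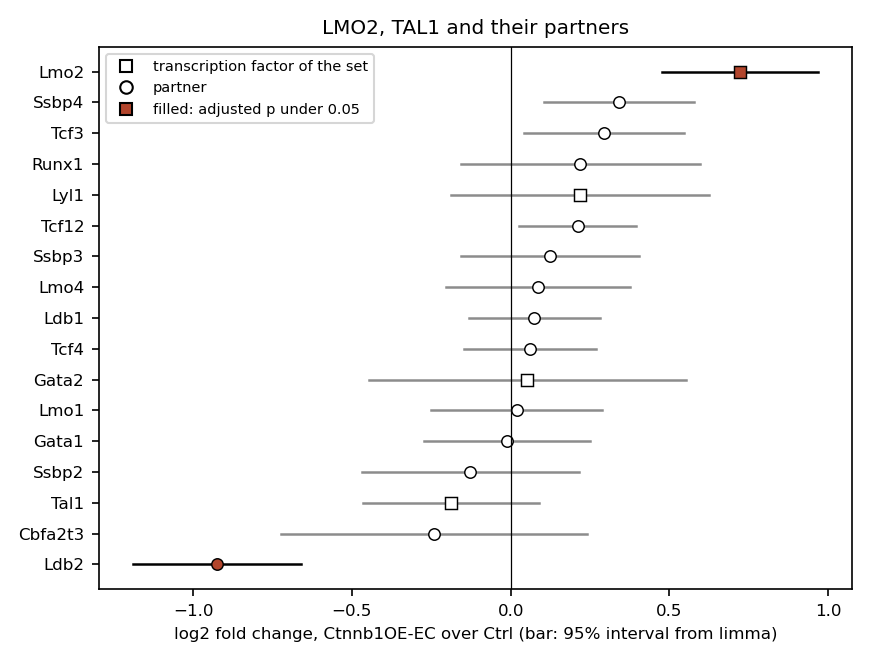
Log2 fold change, Ctnnb1OE-EC over Ctrl, of Lmo2, Tal1, Lyl1 and Gata2 (squares) and of 13 partner genes (circles), with 95% intervals from limma and filled symbols for an adjusted p under 0.05. Lmo2 stands at one end with 0.72 and Ldb2 at the other with -0.93, and no other gene in the plot passed.

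Of the sinusoidal factors, Gata4 and Maf differed by less than the spread between pools, while Tfec lay lower in every Ctnnb1OE-EC sample. Gata4, a zinc-finger factor required for the sinusoidal program in the mouse liver, measured 10.54, 10.55, 10.28 and 10.12 in Ctnnb1OE-EC LSECs, against 10.27, 10.41, 10.51 and 10.55 in Ctrl LSECs. The genotypes covered the same range, and the difference was -0.06 (SE 0.12, 95% interval -0.34 to 0.21, adjusted p = 0.903). Maf, which encodes the bZIP factor c-MAF, measured 11.84, 11.85, 11.62 and 11.84 in Ctnnb1OE-EC LSECs, against 11.82, 11.96, 11.79 and 11.76 in Ctrl LSECs. Replicate 3 was the low Ctnnb1OE-EC sample, and the difference was -0.05 (SE 0.09, 95% interval -0.26 to 0.16, adjusted p = 0.904). For both genes the interval lay within 1.5-fold in either direction.

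Tfec, a MiT-family factor best known from macrophages and also found in sinusoidal endothelium, measured 8.41, 8.51, 8.34 and 8.09 in Ctnnb1OE-EC LSECs, against 8.92, 9.07, 8.75 and 9.08 in Ctrl LSECs. All Ctnnb1OE-EC samples lay below all Ctrl samples, with a gap of 0.24. The means were 8.34 ± 0.18 in Ctnnb1OE-EC and 8.95 ± 0.15 in Ctrl (SD, n = 4 each), and the log2 fold change was -0.62 (SE 0.12, 95% interval -0.89 to -0.34, adjusted p = 0.0591, exact permutation p = 0.0286). Tfec passed with a trended and robust variance prior (adjusted p = 0.0280), with array weights (0.0240) and with dim rows left out (0.0385), and its adjusted p ranged up to 0.271 over the alternatives. Of 9 Kupffer cell markers, those of the liver macrophage, 0 passed and 2 had a higher mean, and their summed linear level ran from 2436 to 8327 in Ctnnb1OE-EC and from 3194 to 7966 in Ctrl. The part of macrophage RNA in the Tfec values was not tested. Gata2 and Gata6, the other GATA genes, differed by 0.05 each (adjusted p of 0.958 or more), and the interval for Gata6 was among the widest of the set (SD 0.57 in Ctnnb1OE-EC and 0.55 in Ctrl).

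Of 12 markers of the sinusoidal state, 0 passed in the higher and 3 in the lower direction, and 11 of 12 had a lower mean. Over all rows, 0.535% were called higher and 0.385% lower. The 3 genes were Lyve1, the hyaluronan receptor, at -1.78 (adjusted p = 0.0178), Cd209b, a C-type lectin, at -1.89 (0.000547), and Wnt2, a Wnt ligand of LSECs, at -1.39 (0.0127). In the same samples 0 of 13 pan-endothelial markers passed, with a median of -0.02, and of 10 continuous and capillary endothelial markers Cd34 (3.10) and Apln (3.36) passed in the higher direction. The study's own list of significantly changed array genes holds Cd209b, Cd34 and Apln, in the same directions. Its loss of Lyve1 was reported by immunofluorescence and quantitative PCR, and that of Wnt2 by in situ hybridization. The lists were chosen with earlier results of these data known, so their counts are not independent support. Because these are bulk samples, fewer cells of a type and less RNA per cell cannot be told apart.

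Of the 3 SOXF genes 0 passed. Sox7 measured 8.56, 8.50, 8.65 and 8.62 in Ctnnb1OE-EC LSECs, against 7.64, 8.17, 8.62 and 7.997 in Ctrl LSECs. The Ctnnb1OE-EC samples lay close together and Ctrl replicate 3 lay among them, and the log2 fold change of 0.48 did not pass (adjusted p = 0.357). Sox17, which acts in arterial and brain endothelium, measured 8.84, 8.82, 9.12 and 9.01 in Ctnnb1OE-EC LSECs, against 8.97, 8.81, 8.88 and 8.91 in Ctrl LSECs. Its difference was 0.06 (SE 0.10, 95% interval -0.16 to 0.28, adjusted p = 0.881). Sox18, a factor of early lymphatic and vascular development, measured 10.04, 10.25, 9.59 and 9.96 in Ctnnb1OE-EC LSECs, against 9.96, 9.92, 10.21 and 10.18 in Ctrl LSECs, with a difference of -0.11 (SE 0.15, adjusted p = 0.852). Of 5 genes reported as SOXF targets, 0 passed, and Vcam1, a leukocyte adhesion molecule, stood first with 0.65 (adjusted p = 0.330).

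Of the 5 ETS genes 0 passed, and all 5 intervals lay within 1.5-fold. Erg, an ETS factor that maintains adult endothelial identity, measured 10.45, 10.33, 10.52 and 10.38 in Ctnnb1OE-EC LSECs, against 10.03, 10.36, 10.14 and 10.30 in Ctrl LSECs. Only Ctrl replicate 2 lay above the lowest Ctnnb1OE-EC sample, and the difference was 0.21 (SE 0.10, 95% interval -0.02 to 0.44, adjusted p = 0.486). Fli1, its close relative, measured 10.91, 10.53, 10.69 and 10.97 in Ctnnb1OE-EC LSECs, against 10.81, 10.62, 10.94 and 10.89 in Ctrl LSECs, with a difference of -0.04 (SE 0.12, adjusted p = 0.945). Ets1 (0.04), Ets2 (-0.17) and the repressor-type factor Elk3 (0.07) did not pass, with adjusted p of 0.561 or more. Of 12 genes reported as ERG or ETS targets, 0 passed, with a median of -0.03. The smallest p among them belonged to Vwf, the von Willebrand factor gene, at a difference of 1.75 (SE 0.56, adjusted p = 0.253).

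The KLF genes varied more between pools than between genotypes. Klf2, a flow-induced factor, measured 9.88, 9.15, 8.99 and 9.61 in Ctnnb1OE-EC LSECs, against 9.36, 9.13, 9.62 and 9.57 in Ctrl LSECs, and the difference was -0.01 (SE 0.20, 95% interval -0.47 to 0.44, adjusted p = 0.989). Klf4 measured 8.01, 7.17, 7.71 and 7.84 in Ctnnb1OE-EC LSECs, against 7.90, 7.14, 7.85 and 7.20 in Ctrl LSECs, with a difference of 0.16 (SE 0.23, adjusted p = 0.858). Of 5 genes reported as KLF2 or KLF4 targets, 0 passed, and Aqp1, a water channel, came first with -0.27 (adjusted p = 0.210).

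Of the 6 forkhead genes 0 passed, and the largest differences stood beside wide errors. Foxc1, a factor of arterial and lymphatic development, measured 6.93, 6.33, 7.66 and 7.50 in Ctnnb1OE-EC LSECs, against 6.33, 6.39, 6.61 and 6.48 in Ctrl LSECs. Foxc2, a factor of lymphatic valves, measured 4.60, 4.65, 5.34 and 5.97 in Ctnnb1OE-EC LSECs, against 4.39, 4.56, 4.63 and 4.48 in Ctrl LSECs. In both genes Ctnnb1OE-EC replicates 3 and 4 stood highest and replicate 2 lay among the Ctrl samples or next to them. The log2 fold changes were 0.65 for Foxc1 (SE 0.26, adjusted p = 0.377) and 0.63 for Foxc2 (SE 0.27, adjusted p = 0.427). Without replicates 3 and 4 they were 0.18 and 0.11. Foxq1, a factor of brain endothelium, measured 4.13, 3.72, 3.52 and 3.70 in Ctnnb1OE-EC LSECs, against 4.08, 4.37, 4.64 and 3.78 in Ctrl LSECs. Its log2 fold change was -0.45 (SE 0.20, adjusted p = 0.427), at values near or below the array median. Foxo1 (0.04), Foxp1 (0.16) and Foxf1 (-0.21), factors of endothelial quiescence and vessel development, had adjusted p of 0.639 or more.

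Prox1, the homeobox gene that specifies lymphatic endothelium and is also expressed by hepatocytes, had the largest log2 fold change of the set but a wide error. It measured 5.46, 5.24, 5.87 and 6.71 in Ctnnb1OE-EC LSECs, against 4.68, 5.04, 4.58 and 5.29 in Ctrl LSECs. Ctnnb1OE-EC replicate 4 lay far above the rest, and replicate 2 lay just below the highest Ctrl sample. The difference was 0.92 (SE 0.30, 95% interval 0.24 to 1.60, adjusted p = 0.267, exact permutation p = 0.0571). Without replicates 3 and 4 it was 0.45. None of 5 lymphatic genes listed downstream of PROX1 passed in the higher direction and 1, Lyve1, passed in the lower direction. Lyve1 and Flt4 are also on the list of sinusoidal markers, and Reln is on that of stellate cell and fibroblast markers. The Lyve1 call is therefore the same one counted there, and this list does not read lymphatic identity alone. The mean was lower in Ctnnb1OE-EC LSECs for 9 of 9 hepatocyte markers, and the list mean was lowest in the 2 samples where Prox1 was highest (6.53 and 7.29 in replicates 3 and 4, against 9.44 and 8.17 in replicates 1 and 2 and 7.43 to 9.18 in Ctrl). The part of hepatocyte RNA in the Prox1 values was not tested.

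Meis1 and Meis2, TALE homeobox factors that act as partners of other homeobox proteins, both measured lower in Ctnnb1OE-EC LSECs. Meis1 measured 8.17, 8.27, 8.41 and 7.92 in Ctnnb1OE-EC LSECs, against 8.42, 8.64, 8.54 and 8.51 in Ctrl LSECs. The groups were apart by 0.0088 only, and the difference was -0.34 (SE 0.12, 95% interval -0.60 to -0.07, adjusted p = 0.297, exact permutation p = 0.0286). Meis2 measured 7.97, 8.22, 7.91 and 7.67 in Ctnnb1OE-EC LSECs, against 8.17, 8.37, 8.45 and 8.32 in Ctrl LSECs, overlapping in 1 sample each, with a difference of -0.38 (adjusted p = 0.274). The other homeobox genes, Hlx (-0.37), Hhex (0.23), Meox1 (0.31) and Meox2 (0.30), had adjusted p of 0.496 or more.

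Of the 3 nuclear receptors 0 passed, and all 3 differences were small beside their errors. Nr2f2, the gene of the venous factor COUP-TFII, measured 8.92, 8.88, 9.04 and 8.81 in Ctnnb1OE-EC LSECs, against 8.86, 8.95, 9.25 and 8.97 in Ctrl LSECs, and the difference was -0.09 (SE 0.11, 95% interval -0.34 to 0.15, adjusted p = 0.803). Ppard, which encodes a fatty acid sensor, measured 7.07, 7.63, 7.49 and 6.86 in Ctnnb1OE-EC LSECs, against 7.44, 7.26, 7.25 and 7.14 in Ctrl LSECs. Its means were nearly equal while the Ctnnb1OE-EC pools spread on both sides of the Ctrl pools (difference -0.01, SE 0.17, adjusted p = 0.989). Nr2f1, a relative of Nr2f2, had a difference of -0.08 (adjusted p = 0.892).

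Bcl6b and Nfatc1 were the other 2 genes that lay higher without overlap. Bcl6b, a BTB zinc-finger repressor expressed in endothelium, measured 9.27, 9.45, 8.98 and 9.34 in Ctnnb1OE-EC LSECs, against 8.96, 8.58, 8.79 and 8.71 in Ctrl LSECs. The difference was 0.50 (SE 0.13, 95% interval 0.21 to 0.78, adjusted p = 0.144, exact permutation p = 0.0286). Nfatc1, a calcineurin-regulated factor of endocardial valve formation, measured 8.65, 8.40, 8.24 and 8.19 in Ctnnb1OE-EC LSECs, against 7.82, 7.97, 8.09 and 7.66 in Ctrl LSECs. The difference was 0.48 (SE 0.13, 95% interval 0.18 to 0.79, adjusted p = 0.190, exact permutation p = 0.0286). Neither passed, and the gaps between the genotypes were 0.02 for Bcl6b and 0.10 for Nfatc1. Without replicates 3 and 4, which were not the high samples for Nfatc1, the differences were 0.60 for Bcl6b and 0.64 for Nfatc1. Tbx3, a T-box factor (0.11), and Mecom, a zinc-finger factor of stem and arterial cells (-0.33), had adjusted p of 0.575 or more.

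**Figure D3:**
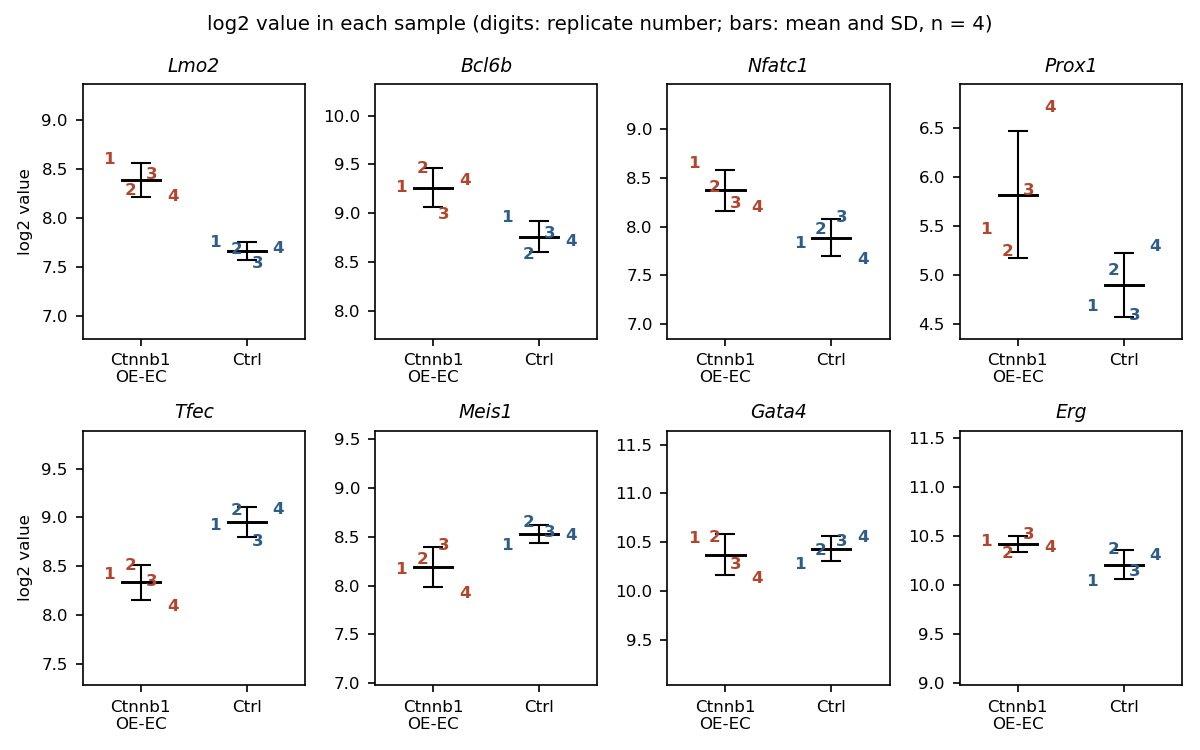
Log2 value of 8 of the genes in each sample, Ctnnb1OE-EC on the left and Ctrl on the right of each panel, with the replicate number as the symbol, bars for the mean and SD (n = 4), and axes of equal length. The Lmo2 values of 8.22 to 8.60 in Ctnnb1OE-EC lie above 7.53 to 7.75 in Ctrl, Tfec lies lower in Ctnnb1OE-EC, and the Gata4 values of the genotypes cover the same range.

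Larger differences were measured in Lef1, Tcf7 and some relatives of the 38 genes. Of 8 factors on a list of Wnt-linked brain endothelial factors, 2 passed in the higher direction, while Foxq1, Ppard and Sox17 on the same list did not. The 2 were Lef1 (2.15, adjusted p = 0.0200) and Tcf7 (2.26, 0.000547), which encode DNA-binding partners of β-catenin. The list held no other TCF or LEF gene. Of 85 other factors and partners from the same families, 2 passed higher and 2 lower (4.71%), namely Sox4 (1.67, adjusted p = 0.0219), Foxp4 (0.90, 0.0397), Klf12 (-1.03, 0.0448) and Ldb2. Over all rows, 0.920% were called in either direction, and 1.74% of the rows at or above the array median. These lists too were chosen with earlier results of these data known. The difference in share between these 85 genes and the 38 was not tested. The row of Ctnnb1, the targeted gene, differed by 0.34 (adjusted p = 0.361), and it does not resolve the exon that the allele removes.

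Some of the larger differences rested on Ctnnb1OE-EC replicates 3 and 4. These 2 samples stood at 43.1 and 36.3 on the first principal component of all rows (30.6% of the variance), and all others at 3.59 or less. They were the 2 highest of the 8 samples for 6 of the 38 genes (15.8%, against 5.75% of all rows), namely Sox17, Foxc1, Foxc2, Foxp1, Prox1 and Tbx3. They were the 2 lowest for 4 genes (10.5%, against 5.64%), namely Tfec, Ets2, Foxq1 and Meis2. The same 2 samples had the highest list means of adrenal cortex markers, at 5.46 and 4.66, against 3.19 and 3.25 in the other Ctnnb1OE-EC samples and 3.21 to 3.43 in Ctrl. The mean was higher in Ctnnb1OE-EC LSECs for 8 of 8 such markers, 6 lay below the array median in Ctrl, and their summed linear level ran from 93.3 to 608 in Ctnnb1OE-EC and from 91.4 to 115 in Ctrl. Neutrophil and monocyte markers had a higher mean in 7 of 8, with summed levels of 249 to 1198 in Ctnnb1OE-EC and 197 to 424 in Ctrl. Smooth muscle markers had a mean of 6.70 and 6.88 in replicates 3 and 4, 4.68 and 5.68 in replicates 1 and 2 and 4.49 to 6.85 in Ctrl, with 8 of 8 higher and summed levels of 368 to 2302 in Ctnnb1OE-EC and 234 to 1983 in Ctrl. The part of these cells in the Foxc1, Foxc2, Prox1 and Tfec values was not tested. Lmo2, Bcl6b and Nfatc1 did not follow these samples, and their differences without replicates 3 and 4 (0.78, 0.60 and 0.64) were at least as large as with them, though the adjusted p of Lmo2 was then 0.112 with 2 samples against 4.

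**Figure D4:**
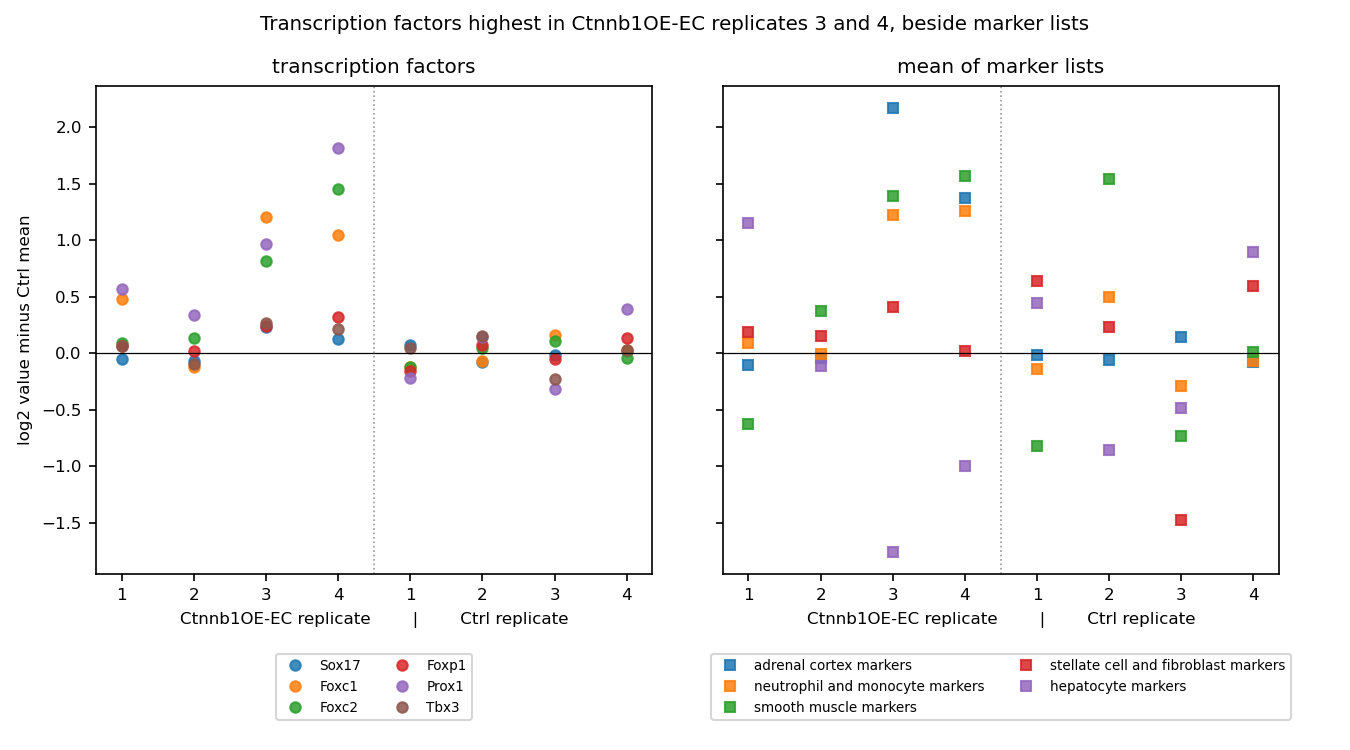
Log2 value minus the Ctrl mean in each of the 8 samples, for the 6 genes that were highest in Ctnnb1OE-EC replicates 3 and 4 (left) and for the mean of 5 marker lists (right). Foxc1 and Foxc2 stand highest in replicates 3 and 4, while Prox1 stands far apart in replicate 4 only. In replicates 3 and 4 the adrenal cortex and the neutrophil and monocyte lists are also highest and the hepatocyte list is low.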

How the data were processed

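LSEC RNA was measured on 8 Affymetrix mouse gene arrays (MoGene-2_0-st). The authors annotated them with a custom chip definition file (version 22, 1 row per Entrez gene), applied RMA background correction and quantile normalization and deposited log2 values. The base was taken from the range of the values (1.53 to 13.4). Of 25428 rows, 25269 were named through Entrez identifiers and RefSeq symbols. No row was filtered and no covariate added. All rows were fitted with limma 3.58.1 in R 4.3.3 (lmFit and eBayes at default settings, with 3.21 prior degrees of freedom). Tests were two-sided, and p-values were adjusted by Benjamini-Hochberg across the whole table. The script was tested on simulated data. Single genes also had an exact permutation test over 70 assignments. Alternatives were a plain analysis of variance for each gene (the study's methods name a one-way analysis of variance with FDR correction in SAS JMP, whose software and settings were not rerun), a trended and robust prior (statmod 1.5.0), array weights, renewed quantile normalization, median centring, a filter on dim rows, a block for the replicate number, leaving out each sample in turn, and Ctnnb1OE-EC replicates 3 and 4 left out. The members and the lists were chosen with earlier results of these data known. Values were given per sample for genes past the threshold, genes without overlap and a fixed group of 13 factors. Sox7, Foxc1, Foxc2 and Meis2 fall outside that rule and were also given per sample, with their results known. List genes were named when past the threshold or first by p. The number of arrays limits the precision. Samples were taken as separate pools, so p-values rest on the spread between these pools, which limma moderates over all rows.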

Additional observations from a re-analysis of the deposited data

Results flagged for a closer look

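Among the 76 groups formed by 38 genes and both genotypes, 2 held a sample far from the other 3 by Dixon's criterion for groups of 4, where chance alone marks about 1 group in 20. Maf in Ctnnb1OE-EC replicate 3 was low, at 11.6 against 11.8 in each of the other Ctnnb1OE-EC samples. Tal1 in Ctrl replicate 3 was high, at 7.01 against 6.59 to 6.63 in the other Ctrl samples, and without that sample the log2 fold change of Tal1 was -0.09.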

How the results depend on the processing

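With 4 samples per genotype, the precision of each value is set by the number of arrays. The count of all rows called was 234, and it was 20 with the plain analysis of variance run here, 86 with the replicate number as a block, 61 without Ctnnb1OE-EC replicates 3 and 4, and 92 to 223 with 1 sample left out. The number of the 38 genes called was 1, and it was 0 with that analysis of variance, 0 with the replicate block, 0 without replicates 3 and 4, 2 (Lmo2 and Tfec) with a trended and robust prior, 2 with array weights, 2 with dim rows left out, and 0 to 1 with 1 sample left out, with 0 without Ctnnb1OE-EC replicate 3 or any Ctrl sample. The median log2 fold change of the 38 genes stayed between -0.00073 and 0.0853. Lmo2 had an adjusted p of 0.0961 under the replicate block. Same-numbered samples deviated together (correlation over 0.1) in 1 of 4 pairs, from -0.177 to 0.253, so the numbers were not taken as pairs. Of the 38 genes, 24 kept the sign of their difference in every alternative run for them and 14 did not (16 alternatives, or 15 for Foxq1, Meox1 and Meox2, which the filter on dim rows removed), and the causes were not tested. Array weights turned Gata6 to -0.11, Fli1 to 0.013 and Klf2 to 0.061. Without Ctnnb1OE-EC replicates 3 and 4 the differences were -0.081 for Gata2, 0.11 for Gata4, -0.44 for Gata6, 0.0096 for Maf, -0.060 for Sox17, 0.078 for Sox18, 0.095 for Klf2, -0.025 for Foxo1, -0.0036 for Lyl1, -0.23 for Meox2, 0.078 for Ppard and -0.016 for Tbx3. With 1 sample left out, the differences ran from -0.13 to 0.12 for Ppard, -0.10 to 0.043 for Fli1, -0.17 to 0.13 for Klf2, -0.17 to 0.25 for Gata6, -0.071 to 0.0077 for Maf, -0.20 to 0.018 for Sox18, -0.031 to 0.52 for Meox2, -0.12 to 0.23 for Gata2, -0.12 to 0.020 for Gata4, -0.056 to 0.12 for Foxo1 and -0.17 to 0.016 for Nr2f1. Among genes outside the set, Ldb2 lost its call only with the plain analysis of variance run here, which does not stand for the study's own test, while Lef1, Sox4, Foxp4, Klf12, Lyve1 and Wnt2 lost theirs in 4 to 10 alternatives, and Cd34, Apln, Cd209b and Tcf7 kept theirs in all that were run.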

Other observations

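Between the 8 samples, the 38 genes were spread unevenly. Ctnnb1OE-EC replicate 3 had the highest value of all samples for 8 genes and Ctnnb1OE-EC replicate 4 had the lowest for 8 genes. In Ctrl, replicate 1 had the lowest value for 9 genes and replicate 3 the highest for 7. The median deviation of the 38 genes from their Ctrl mean was 0.12 in Ctnnb1OE-EC replicate 3 and -0.12 in Ctrl replicate 1, the ends of the range.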
